A study of Homo sapiens with 18 samples.

Results

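The 9 genes described here encode parts of the apical surface of the kidney proximal tubule: the scaffold and cytoskeletal proteins PDZK1, USH1C, ESPN and EZR, the surface enzymes ANPEP and GGT1, and the endocytic genes CUBN, LRP2 and DAB2. They are 9 of the 27086 genes to which the deposited transcripts were summed. They were chosen by function, with earlier results of these libraries known: lower USH1C under both USP13 hairpins and higher ANPEP under 1 of them had already been seen. Those 3 changes, and the tests that reuse the same libraries for these 2 genes, are therefore given as a description with no p-value. RNA came from 786-O, an established line of clear-cell renal carcinoma that lacks functional VHL, so that every group, controls included, carries this loss. ZHX2 is a homeobox and zinc-finger protein of the nucleus, and USP13 removes ubiquitin from proteins, ZHX2 among them as the series title has it. In the USP13 experiment the groups were USP13 hairpin sh50, USP13 hairpin sh52 and a control hairpin, shCtrl. In the ZHX2 experiment they were ZHX2 hairpin sh43, ZHX2 hairpin sh45 and a separate set of shCtrl libraries. Each of the 6 groups held 3 libraries, 18 in all. The labels give a hairpin sequence for sh50 and for sh52, shown because every USP13 comparison rests on them. They mention a doxycycline-inducible vector for USP13 hairpins without tying it to these libraries, and state no time after delivery. They call the libraries triplicates and do not say whether these were separate cultures, so that a p-value here covers the spread between libraries, which may be technical.
USP13 sh50: cgcctgatgaaccaattgata
USP13 sh52: ccggtgaaatctgaactcatt

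The proximal tubule cell carries a brush border, a dense array of actin-filled microvilli that faces the urine. Ezrin ties the actin core to the membrane, espin bundles actin, and harmonin, the product of USH1C, anchors the adhesion links between microvilli. PDZK1 holds transporters in place below the membrane. Between the microvilli, megalin (LRP2) and cubilin (CUBN) take filtered proteins out of the urine with the clathrin adaptor DAB2, while aminopeptidase N (ANPEP) and gamma-glutamyltransferase (GGT1) cleave peptides and glutathione at the surface.

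Total estimated counts per library were between 11192561 and 16511290. USP13 mRNA was lower under sh50 (log2 fold change -0.92) and sh52 (-1.03) than in their shCtrl, with edgeR adjusted p = 6.38e-07 and 3.3e-07. ZHX2 mRNA was lower under sh43 (-3.09, adjusted p = 4.3e-24) and sh45 (-2.03, adjusted p = 1.11e-20). By less, ZHX2 mRNA was also lower under sh50 (-0.20, adjusted p = 0.00861) and sh52 (-0.17, adjusted p = 0.0467). USP13 mRNA was lower under sh43 (-0.23, adjusted p = 0.0155) and not called under sh45 (0.17, adjusted p = 0.085). One protocol text lists hairpins 43 and 45 under USP13, whereas the titles place them under ZHX2; the titles were followed. Replicate 1 of sh52 stood apart from the other libraries of its experiment on the second principal component (-35.71, against -7 to 12.27 in the other 8). Log2 fold changes of the tested members under sh52 are given with and without it. Other results on sh52 are given with all libraries unless stated. Mitochondrial ribosomal RNA moved with the groups: its share of counts was 4.11% to 4.43% under sh50, 3.54% to 3.80% under sh52 and 2.54% to 2.70% in the USP13 shCtrl, and 1.51% to 1.57% under sh43, 2.83% to 3.35% under sh45 and 1.18% to 1.32% in the ZHX2 shCtrl. Its part in the results below was not tested. All 6 markers of a kidney carcinoma line (PAX8, PAX2, KRT8, KRT18, VIM and EPAS1) were above 1 TPM in every group; their summed TPM was 3250 to 3410 under sh50, 3780 to 3900 under sh52 and 4670 to 4840 in the USP13 shCtrl, and 3520 to 3640 under sh43, 3910 to 3940 under sh45 and 4360 to 4460 in the ZHX2 shCtrl. Of 8 markers of the differentiated proximal tubule, SLC5A2 and SLC13A3 were above 1 TPM and SLC22A6 and SLC22A8 were at 0 in all libraries; their summed TPM was 7.86 to 8.49 under sh43, 9.1 to 11.2 under sh45 and 11.7 to 14.3 in the ZHX2 shCtrl. UMOD, AQP2, NPHS1 and CD3E were at 0 in all 18 libraries; endothelial markers summed to at most 0.13 TPM and leukocyte markers to at most 2.04 TPM. Podocyte markers, through PODXL and WT1, summed to 22.3 to 25.4 TPM under sh43, 16.8 to 19.7 TPM under sh45 and 13.8 to 14.1 TPM in the ZHX2 shCtrl. Markers of the loop, distal tubule and collecting duct summed to 0.472 to 0.582 TPM under sh50, 0.942 to 0.995 TPM under sh52 and 1.27 to 1.58 TPM in the USP13 shCtrl, and to at most 0.368 TPM in the ZHX2 experiment. The enterocyte marker FABP1 was above 1 TPM in the ZHX2 shCtrl alone, where the enterocyte list summed to 2.43 to 5.27 TPM; in every other group this list stayed at or under 0.499 TPM. The summed TPM of the kidney carcinoma line markers was lower under every hairpin, but single markers differed. PAX8 averaged 194.5 TPM under sh43 and 195.8 TPM under sh45, against 163.7 TPM in their shCtrl. PAX2 averaged 58.3 TPM under sh50, against 46.7 TPM in the USP13 shCtrl. It averaged 13.4 TPM under sh43 and 14.2 TPM under sh45, against 25.4 TPM in their shCtrl. The part of all these marker lists in the results was not tested.

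PDZK1 and GGT1 were the most abundant members in the USP13 experiment. On the TPM scale, which is per transcript length and so allows genes to be ranked, PDZK1 averaged 282.3 ± 6.37 under sh50, 381.4 ± 19.5 under sh52 and 345.6 ± 8.04 in their shCtrl (SD, n = 3 libraries each, as for every mean below). GGT1 averaged 255.9 ± 5.12, 277.3 ± 7.22 and 348.1 ± 22.3 TPM in the same 3 groups. EZR came next, then ESPN and DAB2, which overlapped under sh50 only, then ANPEP and USH1C. CUBN stayed below 0.6 TPM in every library and LRP2 gave 1 count in 18 libraries. In the ZHX2 experiment GGT1 led in all 3 groups, and PDZK1 held the second place in shCtrl, the third place under sh45 and the fifth place under sh43. Neighbours in the TPM order whose library values overlapped were ESPN and DAB2 under sh50, GGT1 and PDZK1 as well as USH1C and ANPEP in the USP13 shCtrl, and DAB2 and ANPEP as well as USH1C and ESPN under sh43. Under sh52, under sh45 and in the ZHX2 shCtrl no neighbours overlapped.

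**Figure D1:**
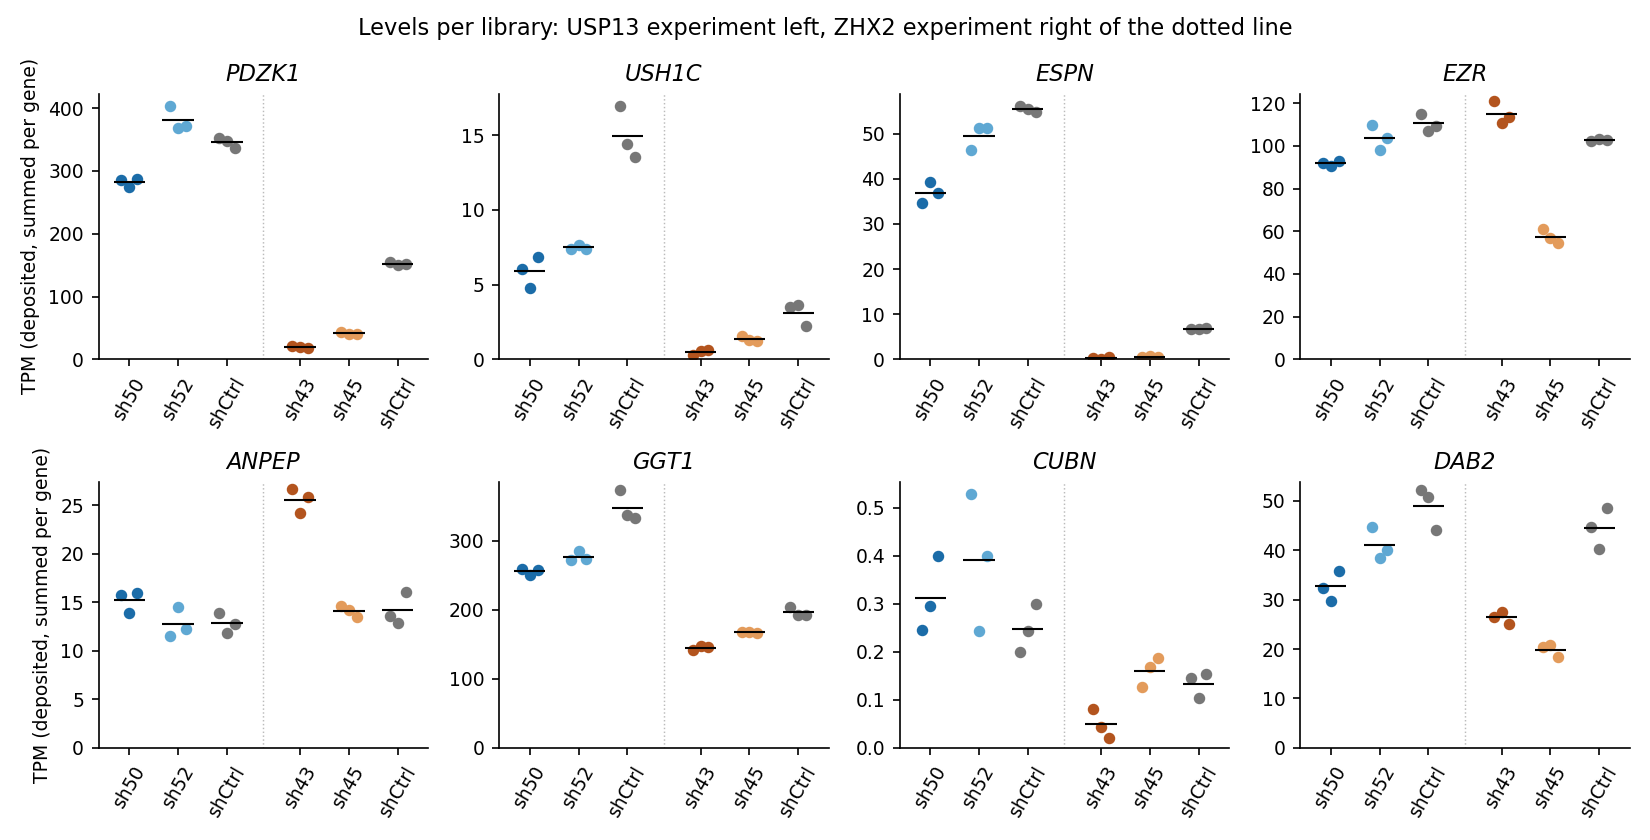
Each point is 1 library and each bar the mean of 3, in TPM on an axis that starts at 0, with the USP13 groups left of the dotted line and the ZHX2 groups right of it. PDZK1 and ESPN are close to the axis under sh43 and sh45, USH1C is highest in the USP13 shCtrl, and EZR stands above its control under sh43 and below it under sh45.

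The 2 sets of control libraries held different amounts of several members. Mean TPM in the USP13 shCtrl and in the ZHX2 shCtrl was 55.5 and 6.79 for ESPN (8.17 times), 15.0 and 3.12 for USH1C (4.8 times) and 345.6 and 152.4 for PDZK1 (2.27 times). GGT1 (348.1 and 196.5) and CUBN (0.247 and 0.134) were also apart, whereas ANPEP and DAB2 overlapped. Among 12436 genes with at least 1 TPM in both controls, 7.37% differed by more than 2-fold, and 15 genes had a ratio at least as high as that of ESPN. ZHX2 itself was at 61.2 TPM in the USP13 shCtrl and 142.3 TPM in the ZHX2 shCtrl. The experiment and its control hairpin libraries cannot be told apart, so these values are set side by side with no test.

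PDZK1, a protein of several PDZ domains that gathers transporters at the apical membrane, fell strongly under both ZHX2 hairpins. It had 24.7, 22.8 and 21.4 CPM (counts scaled to library size with TMM factors) under sh43 and 54.6, 50.8 and 51.1 CPM with sh45, against 169.9, 170.2 and 164.6 CPM in their shCtrl. All sh43 libraries lay below all sh45 libraries, and these below all controls. The log2 fold change was -2.87 ± 0.07 (SE) under sh43, 7.31-fold lower, and -1.69 ± 0.06 under sh45, 3.22-fold lower (edgeR quasi-likelihood test, Benjamini-Hochberg adjusted p = 9.59e-23 and 2.89e-18 over all genes tested). These changes ranked 107 and 148 from the lowest of 13604 genes tested. In bulk RNA, fewer cells that express a gene and less RNA per cell cannot be told apart. With USP13 knocked down, PDZK1 had 346.3, 330.2 and 327.5 CPM with sh50 and 446.6, 427.2 and 424.5 CPM with sh52, against 394.5, 397.5 and 396.5 CPM in their shCtrl. No groups overlapped: sh50 lay below the controls and sh52 above them. The fall under sh50 was small (-0.24 ± 0.05, adjusted p = 0.000531), and the difference under sh52 did not pass the test (0.13 ± 0.05, adjusted p = 0.0852; 0.10 without its replicate 1). With DESeq2 the sh52 difference did pass (0.13, adjusted p = 0.048). The 3 listed transcripts of PDZK1 each took between 27.8% and 38.2% of its counts in every group.

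USH1C was lower under all 4 hairpins. It had 7.96, 6.46 and 8.47 CPM with sh50 and 8.98, 10.1 and 9.40 CPM with sh52, against 20.7, 18.4 and 17.3 CPM in their shCtrl. Both hairpin groups lay wholly below the controls. The log2 fold changes of -1.30 (2.46-fold lower) and -0.98 (1.98-fold lower) are among the values known when the genes were picked and carry no test here; without replicate 1 of sh52 the second was -0.945. In the ZHX2 experiment the counts were few: 5, 11 and 10 reads under sh43 and 32, 25 and 27 under sh45, against 57, 63 and 37 in their shCtrl. The 3 groups did not overlap on the CPM scale, at 0.361 to 0.795 CPM with sh43 and 1.77 to 2.09 CPM with sh45, against 2.54 to 4.57 CPM in shCtrl. The log2 fold change of USH1C was -2.61 ± 0.34 under sh43 (adjusted p = 1.92e-07) and -0.97 ± 0.28 under sh45 (adjusted p = 0.00486). Only 1 of the 3 sh43 libraries was over the 0.722 CPM that the filter on low counts asks for, so that USH1C was tested under sh43 because of its level in the other groups.

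Espin showed the largest change of all members. ESPN had 0.793, 0.256 and 1.03 CPM with sh43 and 1.11, 1.73 and 1.11 CPM with sh45, against 12.9, 13.1 and 13.0 CPM in their shCtrl. These CPM stand on 4 to 13 reads per sh43 library and 17 to 22 per sh45 library, against 169 to 190 in the controls. The log2 fold change was -4.27 ± 0.26 under sh43, 19.3-fold lower (adjusted p = 6.93e-14), and -3.32 ± 0.23 under sh45, 9.97-fold lower (adjusted p = 2.42e-12), which placed ESPN at ranks 22 and 21 from the lowest of 13604 genes. ESPN levels were higher throughout the USP13 experiment, with 74.0, 83.1 and 74.2 CPM with sh50 and 89.9, 104.3 and 102.4 CPM with sh52, against 110.3, 111.0 and 113.7 CPM in shCtrl. The 3 groups were apart, in that order. The fall was 0.53 ± 0.07 on the log2 scale under sh50 (adjusted p = 1.9e-06), and the sh52 difference of -0.18 ± 0.07 did not pass (adjusted p = 0.086; -0.11 without its replicate 1). ESPN shares 383 exon bases with TNFRSF25 on the opposite strand, and, as these libraries keep no strand, reads from the shared bases could belong to either gene. TNFRSF25 moved the other way under ZHX2 knockdown: it had 14.6, 14.4 and 13.0 CPM with sh43 and 20.3, 22.2 and 25.4 CPM with sh45, against 10.3, 11.7 and 11.1 CPM in shCtrl (log2 fold changes 0.34 and 1.03, adjusted p = 0.0117 and 1.31e-08). The near-copy ESPNP held at most 19 reads in any library.

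EZR, which encodes ezrin, moved in opposite directions under the 2 ZHX2 hairpins. It had 210.9, 197.3 and 206.4 CPM with sh43 and 115.7, 111.6 and 107.4 CPM with sh45, against 171.6, 178.7 and 169.7 CPM in their shCtrl. All sh43 libraries were above and all sh45 libraries below the controls. The rise under sh43 was 0.24 ± 0.05 (adjusted p = 0.000128) and the fall under sh45 was 0.64 ± 0.05 on the log2 scale (adjusted p = 5.88e-11). Among USP13 libraries EZR had 171.8, 168.1 and 163.5 CPM with sh50 and 186.7, 174.7 and 182.3 CPM with sh52, against 198.3, 187.6 and 198.7 CPM in shCtrl. Both groups lay below the controls on the CPM scale, whereas in TPM sh52 (97.93 to 109.6) overlapped shCtrl (106.8 to 115.1). The fall passed under sh50 (-0.22 ± 0.05, adjusted p = 0.00478) and not under sh52 (-0.10 ± 0.05, adjusted p = 0.23). Without replicate 1 of sh52 the log2 fold change under sh52 was -0.125.

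Among the surface enzymes, ANPEP was higher under sh43 and, by a small margin on the CPM scale, under sh45. It had 54.8, 51.1 and 55.6 CPM with sh43 and 32.9, 32.8 and 31.6 CPM with sh45, against 26.9, 26.3 and 31.4 CPM in their shCtrl. The sh43 libraries stood well above the rest, while the lowest sh45 library was only just above the highest control on the CPM scale. In TPM the sh45 libraries overlapped the controls and their means were 14.12 under sh45 and 14.19 in shCtrl, so that the direction under sh45 depends on the scale. The rise was 0.93 ± 0.08 under sh43, 1.9-fold (adjusted p = 4.07e-11), and 0.20 ± 0.08 under sh45 (adjusted p = 0.0404). The sh45 call was lost with DESeq2 (adjusted p = 0.052), in a fit of these 2 groups alone (adjusted p = 0.0598) and without replicate 1 or 2 of sh45 or replicate 1 or 2 of shCtrl (adjusted p = 0.0883 to 0.139; 0.00693 is the lowest on leaving out 1 library). Among USP13 libraries ANPEP had 35.0, 30.4 and 33.3 CPM with sh50 and 23.1, 30.7 and 25.3 CPM with sh52, against 28.4, 24.6 and 27.3 CPM in shCtrl. The sh50 libraries lay above the controls on the CPM scale, 1.23-fold in the fit, a value known when the genes were picked. In TPM they overlapped the controls, at 13.87 to 15.98 against 11.85 to 13.92. The log2 fold change of 0.30 under sh50 became 0.24 to 0.36 on leaving out 1 library. The sh52 libraries overlapped the controls (log2 fold change -0.02, and 0.07 without replicate 1).

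On the CPM scale, GGT1 fell by similar amounts under 3 of the 4 hairpins. It had 384.0, 366.6 and 360.3 CPM with sh50 and 367.2, 403.7 and 381.8 CPM with sh52, against 509.9, 468.6 and 479.8 CPM in their shCtrl. Both hairpin groups were wholly below the controls and overlapped each other. The log2 fold change was -0.39 ± 0.05 under sh50 (adjusted p = 3.56e-06) and -0.34 ± 0.05 under sh52 (adjusted p = 6.23e-05; -0.31 without its replicate 1). In the ZHX2 experiment GGT1 had 196.8, 207.5 and 212.6 CPM with sh43 and 252.6, 260.5 and 262.4 CPM with sh45, against 271.9, 264.5 and 252.3 CPM in shCtrl. The sh43 group was lower (-0.35 ± 0.05, adjusted p = 2.22e-07). The sh45 group overlapped the controls on the CPM scale, with a log2 difference of -0.02 and a 95% interval of -0.115 to 0.067 (adjusted p = 0.69). In TPM the sh45 libraries lay wholly below the controls, at 167.2 to 168.0 against 192.0 to 204.8. The result for GGT1 under sh45 therefore depends on the scale. GGT1 shares 306 exon bases with SNRPD3 on the same strand. SNRPD3 was higher under sh52 (0.20, adjusted p = 0.045) and sh43 (0.57, adjusted p = 2.29e-10). The 3 transcripts of GGT1 each held 32.2% to 34.8% of its counts in every group.

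DAB2, the adaptor that links cargo receptors to clathrin, was the endocytic member with a high count, and it fell under all 4 hairpins. It had 69.3, 74.0 and 68.8 CPM with sh43 and 58.4, 61.2 and 54.4 CPM with sh45, against 112.5, 104.6 and 120.4 CPM in their shCtrl. Every sh45 library was below every sh43 library, and both groups were below the controls. The fall was 0.67 ± 0.06 on the log2 scale under sh43 (adjusted p = 7.61e-10) and 0.96 ± 0.07 under sh45 (adjusted p = 2.33e-12). The USP13 libraries held DAB2 at 91.4, 83.3 and 95.4 CPM with sh50 and 114.7, 103.4 and 105.8 CPM with sh52, against 135.4, 134.4 and 120.5 CPM in shCtrl. On the CPM scale the groups were apart in that order, whereas in TPM sh52 (38.5 to 44.75) overlapped shCtrl (44.03 to 52.14). The fall was 0.53 ± 0.07 under sh50 (adjusted p = 1.71e-06) and 0.27 ± 0.07 under sh52 (adjusted p = 0.00791). Without replicate 1 of sh52 the log2 fold change under sh52 was -0.315 (adjusted p = 0.00173). Without replicate 1 or replicate 2 of shCtrl the sh52 call was lost (adjusted p = 0.0511 and 0.0565).

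The receptors of this endocytic machinery were nearly absent from the RNA. LRP2 had 1 read in 1 sh50 library and 0 in the other 17 libraries; a count of 0 allows up to 3 reads, or 0.182 to 0.268 CPM depending on the library, by counting error alone. CUBN had 8, 5 and 2 reads under sh43 and 15, 17 and 23 under sh45, against 13, 10 and 15 in their shCtrl. It had 21, 33 and 48 reads under sh50 and 52, 22 and 40 under sh52, against 18, 28 and 28 in the USP13 shCtrl. Only the sh43 group lay apart from its controls (log2 fold change -1.34 ± 0.50, adjusted p = 0.019). None of the 3 sh43 libraries was over the 0.722 CPM that the filter asks for, so that CUBN entered the test through its level in sh45 and shCtrl, and this p is weak support for a difference. The call was also lost without replicate 2 or 3 of sh43 or replicate 1 or 3 of the ZHX2 shCtrl (adjusted p = 0.0522 to 0.091; the lowest on leaving out 1 library was 0.0102). The other differences of CUBN did not pass: 0.40 under sh50, 0.64 under sh52 and 0.47 under sh45, with 95% intervals of -0.247 to 1.04, 0.001 to 1.27 and -0.294 to 1.23. The sh52 value was 0.385 without its replicate 1.

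**Figure D2:**
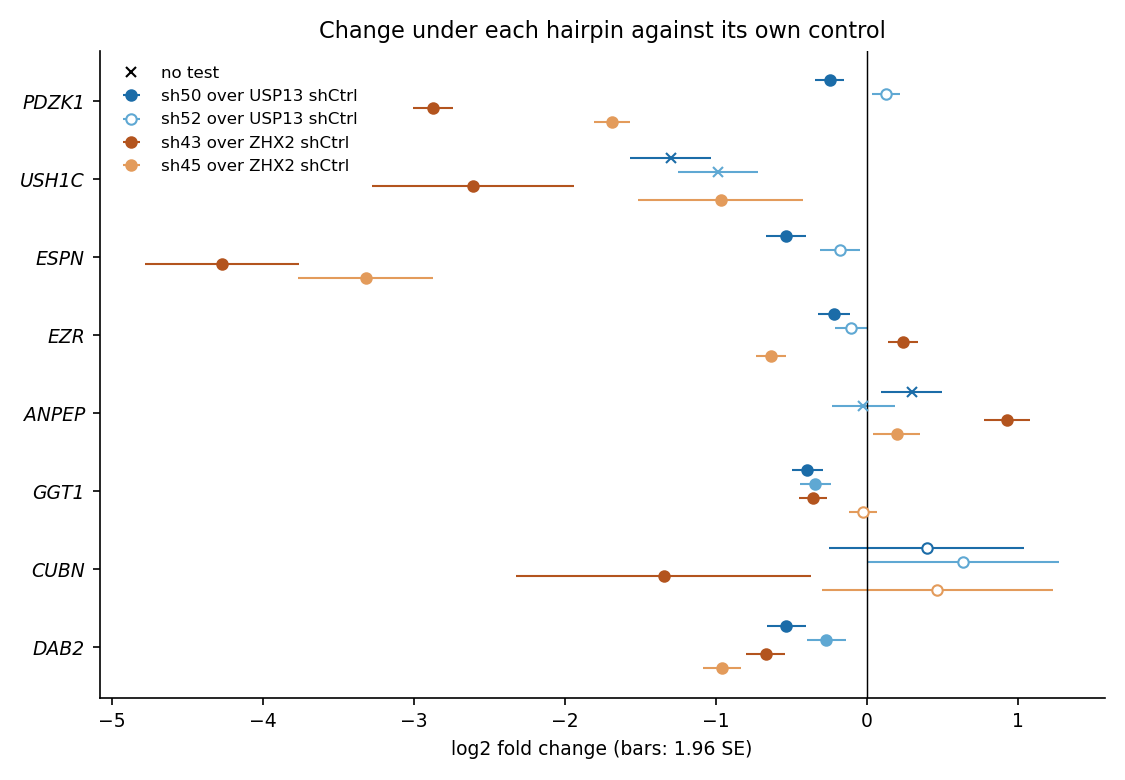
Points are log2 fold changes of each hairpin over its own shCtrl in the edgeR fits, bars span 1.96 SE on either side, and filled circles have an adjusted p under 0.05; crosses are the USH1C and ANPEP values from USP13 libraries, shown with no test. ESPN and PDZK1 reach -4.27 and -2.87 under sh43, the USP13 hairpins stay between -1.30 and 0.64, and the members with few reads (CUBN, and USH1C and ESPN under ZHX2 hairpins) have the widest bars.

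Of the 9 members, 8 passed the filter on low counts in each experiment and LRP2 in neither. In the ZHX2 experiment USH1C, ESPN and CUBN exceeded the level of 0.722 CPM that the filter asks for in 1, 2 and 0 of the 3 sh43 libraries and passed through sh45 and shCtrl. Under sh43, 6 of the 8 were lower (PDZK1, USH1C, ESPN, CUBN, GGT1 and DAB2) and 2 higher (EZR and ANPEP), where 35.2% of all genes tested were called lower and 33.5% higher. Under sh45, 5 were lower (PDZK1, USH1C, ESPN, EZR and DAB2) and 1 higher (ANPEP), beside 27.3% and 25.3% of all genes. PDZK1, USH1C, ESPN and DAB2 were lower under both ZHX2 hairpins, 4 of 8 beside 15.9% of all genes, and ANPEP alone was called higher under both, 1 of 8 beside 14.1%, its sh45 direction not holding in TPM. Under sh50, 6 members were lower and 1 higher beside 11.3% and 10.2% of all genes, counts that include the USH1C and ANPEP values known beforehand. Under sh52, 3 were lower and 0 higher beside 6.56% and 5.45%, and as many were called without its replicate 1; these 3 (GGT1, DAB2 and, as a value known beforehand, USH1C) were the members lower under both USP13 hairpins, 3 of 8 beside 4.16% of all genes, and none was higher under both (3.26% of all genes were). The median log2 fold change of the 8 members was -1.01 under sh43, -0.80 under sh45, -0.32 under sh50 and -0.14 under sh52, where the medians of all genes tested were -0.02, -0.01, 0.00 and 0.00. Since some members passed the filter only through groups where they were high, and since the members were picked with results known, these counts and medians describe the list and test nothing about it.

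The 2 hairpins against ZHX2 differed from each other for every tested member, in a comparison where 66.8% of all genes were called. Relative to sh43, sh45 libraries held more PDZK1 (log2 difference 1.18 ± 0.07, adjusted p = 6.87e-14), USH1C (1.64 ± 0.38, adjusted p = 0.000447), CUBN (1.81 ± 0.47, adjusted p = 0.00135), ESPN (0.95 ± 0.38, adjusted p = 0.0285) and GGT1 (0.33 ± 0.05, adjusted p = 7.77e-07). They held less EZR (-0.88 ± 0.05, adjusted p = 4.22e-14), ANPEP (-0.73 ± 0.08, adjusted p = 3.37e-09) and DAB2 (-0.29 ± 0.07, adjusted p = 0.000514). ZHX2 mRNA itself was higher under sh45 than under sh43, at 90.8, 82.1 and 79.6 CPM against 38.6, 43.4 and 38.6 CPM, with 340.3, 344.2 and 343.9 CPM in shCtrl. The ESPN difference was lost without replicate 2 of sh43 (adjusted p = 0.222) or replicate 2 of sh45 (adjusted p = 0.132), and reached adjusted p = 0.00917 at the lowest on leaving out 1 library. CUBN, USH1C and ESPN exceeded the filter level of 0.722 CPM in 0, 1 and 2 of the 3 sh43 libraries. They entered this comparison through other groups, so that their p-values here are weak support for a difference.

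Between the USP13 hairpins 10.2% of all genes were called. Relative to sh50, sh52 libraries held more PDZK1 (0.37 ± 0.05, adjusted p = 9.65e-06), ESPN (0.36 ± 0.07, adjusted p = 0.000933) and DAB2 (0.26 ± 0.07, adjusted p = 0.0125), and the difference of DAB2 was lost without replicate 2 of sh50 (adjusted p = 0.12; 0.00841 at the lowest on leaving out 1 library). Without replicate 1 of sh52 the PDZK1, ESPN and DAB2 differences passed as well (adjusted p = 1.19e-05, 4.02e-05 and 0.0433). ANPEP was 0.32 lower on the log2 scale under sh52, given as a description, and its groups overlapped. USH1C was 0.31 higher, likewise a description. EZR, GGT1 and CUBN did not pass, with log2 differences of 0.11, 0.05 and 0.24.

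The responses of the 2 experiments were set against each other in a fit of all 18 libraries, as the mean of both USP13 hairpins over their controls minus the mean of both ZHX2 hairpins over theirs. The difference passed for 43.4% of all genes. It was 3.43 ± 0.17 for ESPN (adjusted p = 8.72e-18), 2.21 ± 0.06 for PDZK1 (adjusted p = 1.95e-24) and 0.40 ± 0.08 for DAB2 (adjusted p = 0.000138), all 3 lower under ZHX2 knockdown than under USP13 knockdown relative to their own controls. GGT1 went the other way (-0.19 ± 0.06, adjusted p = 0.00995), a call lost without replicate 1 of the USP13 shCtrl (adjusted p = 0.051) or replicate 3 of the ZHX2 shCtrl (adjusted p = 0.0618). The differences of USH1C (0.63) and ANPEP (-0.44) are given with no test, since they reuse the USP13 libraries on which these genes were known. EZR (0.02, 95% interval -0.1 to 0.146) and CUBN (0.94, 95% interval -0.005 to 1.89) did not pass. For both, the mean over ZHX2 hairpins joins opposite signs under sh43 and sh45: 0.24 and -0.64 for EZR, -1.34 and 0.47 for CUBN. The difference near 0 for EZR therefore does not show like responses.

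**Figure D3:**
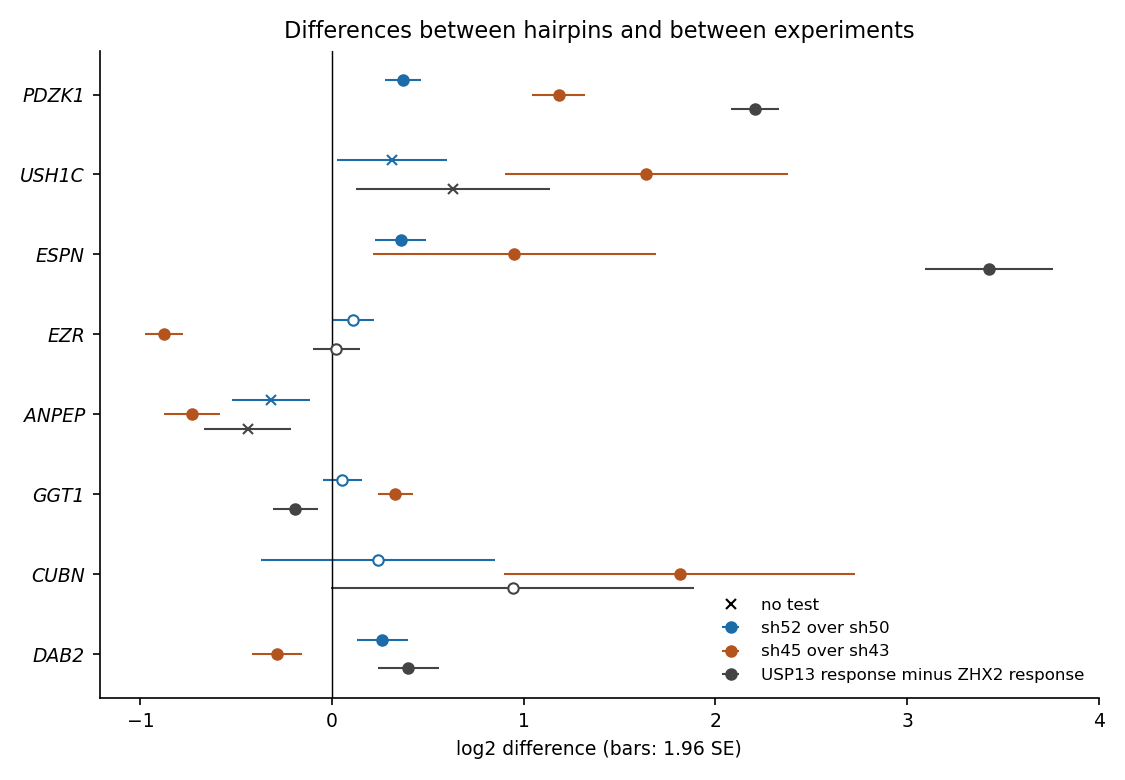
Points are log2 differences with bars of 1.96 SE on either side: sh52 over sh50, sh45 over sh43, and the USP13 response minus the ZHX2 response; filled circles have an adjusted p under 0.05, and crosses are USH1C and ANPEP values that use USP13 libraries, shown with no test. ESPN (3.43) and PDZK1 (2.21) stand farthest from 0 between experiments, and EZR, ANPEP and DAB2 are the members below 0 for sh45 over sh43.

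Other genes of the same structures were taken from 3 lists drawn up by function. Of 26 scaffold and microvillus genes, 18 were tested in the USP13 experiment and 17 in the ZHX2 experiment. Under sh50 and sh52, 3 and 1 were higher and 5 and 3 lower; under sh43 and sh45, 8 and 5 were higher and 5 and 7 lower. Among all genes, 10.2% and 5.45% were higher and 11.3% and 6.56% lower under sh50 and sh52, and 33.5% and 25.3% higher and 35.2% and 27.3% lower under sh43 and sh45. RDX (radixin, a close relative of ezrin) was the 1 gene lower under both USP13 hairpins (-0.28 under sh50, adjusted p = 0.000855, and -0.18 under sh52, adjusted p = 0.0438), and none was higher under both. The sh52 call of RDX was lost with upper-quartile factors, with effective length offsets, with the replicate block, in a fit of the 2 groups alone and on leaving out each of 7 libraries: replicate 1 or 2 of sh50, replicate 1, 2 or 3 of sh52, and replicate 1 or 2 of shCtrl (adjusted p = 0.0526 to 0.224). Under both ZHX2 hairpins 4 of the 17 were higher and 2 lower, beside 14.1% and 15.9% of all genes. STK10, a kinase of ezrin, radixin and moesin, had 108.7, 106.0 and 106.6 CPM with sh43 and 62.9, 59.4 and 59.0 CPM with sh45, against 43.0, 41.1 and 39.7 CPM in shCtrl. Its groups were fully apart (log2 fold changes 1.38 and 0.55, adjusted p = 9.57e-17 and 4.07e-08). BAIAP2L2, a membrane-bending BAR-domain protein, was also higher (0.55 and 1.00, adjusted p = 0.00804 and 1.92e-05), as was MYO5B, a motor of apical traffic (0.78 and 0.57, adjusted p = 0.000608 and 0.013). PLS1, an actin bundler of microvilli, was lower (-0.27 and -0.77, adjusted p = 0.00861 and 6.31e-08). In the USP13 experiment, STK10 and PLS1 were lower under sh50 (-0.26 and -0.28, adjusted p = 0.0352 and 0.0173). MYO5B was lower under sh52 (-0.84, adjusted p = 0.00195), and BAIAP2L2 was higher under sh50 (0.84, adjusted p = 0.0192). The other USP13 hairpin gave no call for these genes. The MYO5B call under sh45 was lost without replicate 1 of sh45 (adjusted p = 0.0882), and that of PLS1 under sh43 without replicate 1 of sh43 (adjusted p = 0.0667) or replicate 3 of shCtrl (adjusted p = 0.0948). The median log2 change of the list over both hairpins was -0.10 in the USP13 experiment and -0.01 in the ZHX2 experiment, beside 0.00 and -0.02 for all genes. Counts of this list changed when 1 library was left out, to between 3 and 10 under sh50 and between 2 and 5 under sh52. Under sh50 it was 3 to 4 in place of 8 without replicate 1 or 3 of sh50 or replicate 1 or 2 of shCtrl. Under sh52 it was 2 in place of 4 without replicate 3 of sh52 or replicate 2 of shCtrl. In a fit of the 2 groups alone the sh52 count was also 2.

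The apical endocytosis list held 17 genes, of which 16 and 15 were tested in the USP13 and the ZHX2 experiment. Under sh50 and sh52, 1 and 1 were higher and 4 and 3 lower; under sh43 and sh45, 5 and 1 were higher and 6 and 5 lower. Of all genes, 10.2% and 5.45% were higher and 11.3% and 6.56% lower under sh50 and sh52. The shares under sh43 and sh45 were 33.5% and 25.3% higher and 35.2% and 27.3% lower. The counts lower under sh43 and sh45 are near the shares of all genes. AP2M1, a subunit of the clathrin adaptor AP-2, was lower under both USP13 hairpins (-0.28 and -0.24, adjusted p = 3.33e-05 and 0.000503). APPL1 (-0.22 and -0.28, adjusted p = 0.0308 and 0.0119) and SNX5 (-0.18 and -0.20, adjusted p = 0.0376 and 0.0323), both proteins of early endosomes, completed the 3 genes lower under both, 3 of 16 beside 4.16% of all genes. Calls of APPL1 were lost under sh50 without replicate 2 or 3 of sh50 or replicate 1 or 2 of shCtrl, and under sh52 without replicate 1 of shCtrl (adjusted p = 0.0744 to 0.182). Calls of SNX5 were lost under sh50 without any 1 of the 3 sh50 libraries, replicate 3 of sh52 or replicate 1 or 2 of shCtrl, and under sh52 without replicate 2 or 3 of sh52 or replicate 1 or 2 of shCtrl (adjusted p = 0.0534 to 0.165). With the replicate block both SNX5 calls were lost (adjusted p = 0.0621 and 0.056), as was the sh50 call with upper-quartile factors (0.051) or no filter (0.0673) and the sh52 call in a fit of the 2 groups alone (0.0556). In the ZHX2 experiment SNX5 (-0.35 and -0.34, adjusted p = 5.84e-06 and 1.68e-05) and RAB11A, a GTPase of recycling endosomes (-0.31 and -0.16, adjusted p = 1.11e-05 and 0.0114), were lower under both hairpins, 2 of 15 beside 15.9% of all genes, and none was higher under both. The sh45 call of RAB11A was lost without replicate 3 of sh45 (adjusted p = 0.144). The list's median was -0.09 in the USP13 and -0.06 in the ZHX2 experiment. Its count under sh50 was 2 to 3 in place of 5 without replicate 1 or 2 of sh50 or replicate 1 or 2 of shCtrl, and under sh52 it was 2 in place of 4 without replicate 1 of shCtrl.

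Of 18 other surface peptidases and ectoenzymes, 10 were tested in each experiment. Under sh50 and sh52, 0 and 0 were higher and 6 and 2 lower. Of all genes, 10.2% and 5.45% were higher and 11.3% and 6.56% lower under these hairpins. Under sh43 and sh45, 2 and 2 of the list were higher and 7 and 4 lower. The shares of all genes there were 33.5% and 25.3% higher and 35.2% and 27.3% lower. ENPEP, aminopeptidase A, which cleaves angiotensin peptides, was lower under all 4 hairpins. It had 40.7, 45.0 and 36.2 CPM with sh43 and 91.2, 83.9 and 81.7 CPM with sh45, against 124.2, 121.0 and 125.6 CPM in shCtrl, and the 3 groups were apart (-1.60 and -0.53, adjusted p = 7.24e-17 and 1.73e-07). Under sh50 and sh52 it was 0.33 and 0.35 lower on the log2 scale (adjusted p = 0.000489 and 0.000461). NT5E, the 5'-nucleotidase that makes adenosine at the surface, rose most, with 237.7, 214.4 and 214.7 CPM with sh43 and 199.7, 196.6 and 175.1 CPM with sh45, against 26.2, 26.3 and 28.1 CPM in shCtrl. That is 8.27-fold and 7.08-fold (adjusted p = 2.52e-23 and 4.69e-22). Under sh50 NT5E was lower (-0.59, adjusted p = 0.0384), though its libraries overlapped the controls, and under sh52 it was not called (-0.51, adjusted p = 0.102). MME, or neprilysin, rose too, with 19.0, 18.6 and 19.4 CPM with sh43 and 12.0, 10.96 and 11.1 CPM with sh45, against 7.73, 7.62 and 8.44 CPM in shCtrl (adjusted p = 2.45e-10 and 0.000781). In all, 2 of the 10 were higher and 4 lower under both ZHX2 hairpins, beside 14.1% and 15.9% of all genes, and 0 higher and 2 lower under both USP13 hairpins, beside 3.26% and 4.16%; the list's median was -0.50 in the ZHX2 and -0.26 in the USP13 experiment. Its count under sh50 was 3 in place of 6 without replicate 1 or 2 of sh50 or replicate 1 of shCtrl.

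**Figure D4:**
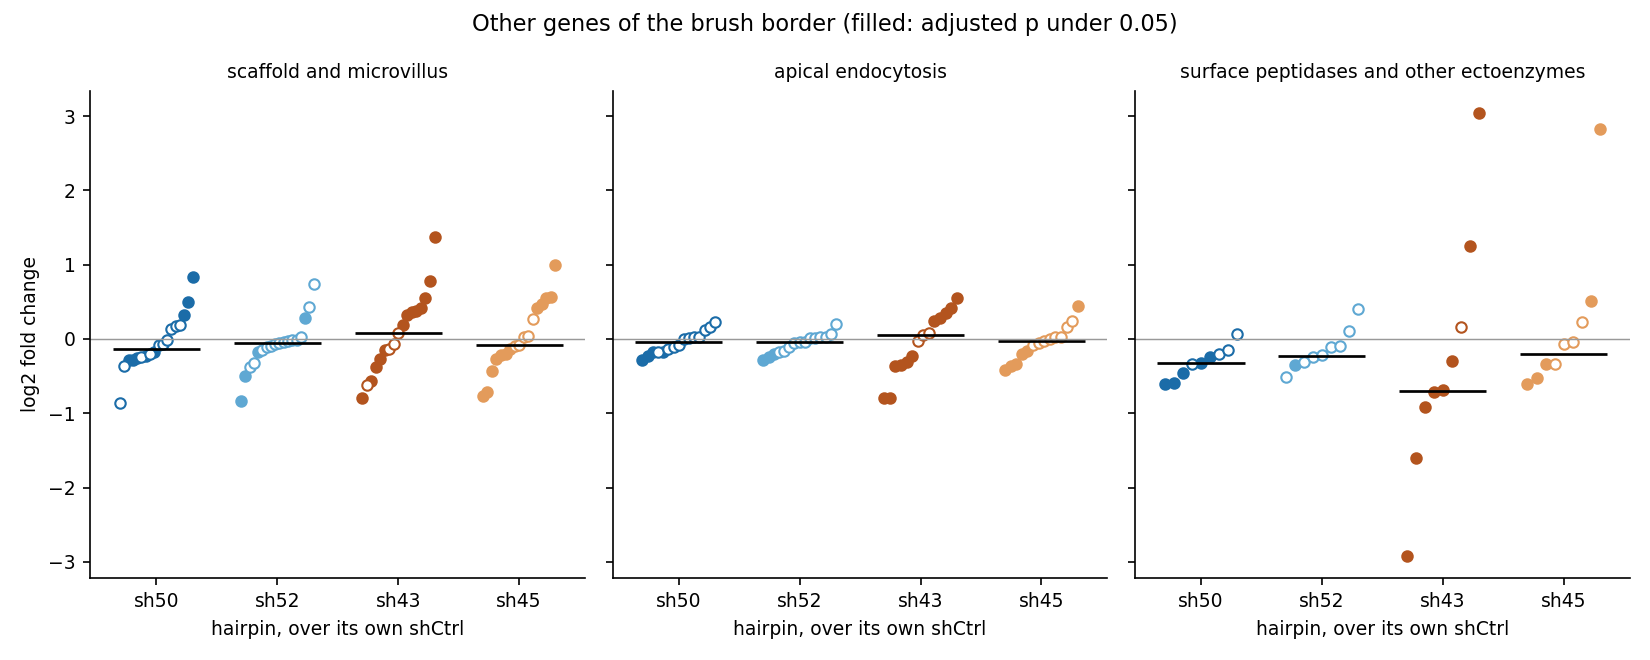
Each point is 1 tested gene of the list named above the panel, as its log2 fold change under sh50, sh52, sh43 or sh45 over its own shCtrl, with 1 gene of the endocytosis list and 1 of the ectoenzymes left out. Filled points have an adjusted p under 0.05 and black bars are medians over all tested genes of the list. The scaffold and endocytosis genes lie on both sides of 0. Of the ectoenzymes, those drawn spread most under sh43, with NT5E at the top (3.05) and ENPEP (-1.60) among those below 0.

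The genes whose pattern was most like that of each member were found by Pearson correlation of log2 CPM over the 18 libraries, each centred on its own shCtrl mean, among 11095 genes. The points share hairpin, depth and experiment and form separate clusters, so that r is a description of 4 hairpin groups more than of 18 libraries. For PDZK1, CARHSP1 and GABARAPL1 were among the 3 nearest, both at r = 0.994. The nearest genes were CFI (0.986), RFX5 and UGT1A6 (both 0.983) for ESPN, NDFIP2 (0.96), TRAM1 (0.951) and F11R (0.948) for USH1C, and BLOC1S5-TXNDC5 (0.985), PGAM1 (0.981) and TXNDC5 (0.976) for EZR. They were CYCS (0.967), USP36 (0.96) and URB1 (0.958) for ANPEP, VIM (0.955), LDAF1 (0.947) and RTN3 (0.945) for GGT1, LRRFIP1 (0.97), IDH1 (0.968) and PCSK5 (0.959) for DAB2, and TRIM13 (0.933), ZNF83 (0.909) and CBFA2T2 (0.904) for CUBN. HNF4A, a regulator of proximal tubule genes, had at most 6 reads in any library.

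Because PDZK1, USH1C and DAB2 were lower under both ZHX2 hairpins, their start regions are shown. RefSeq windows (GRCh38.p14) of 300 bases, 250 before to 50 after a start site, matched 8 of the 9 members in 12 windows; ESPN was not matched. Both strands were searched for a half-site of HNF4 (CAAAGT) and the HIF core (ACGTG), and no match of 1 motif overlapped a match of another in these windows. These letters occur in 11.9% and 21.4% of all 35116 windows. CAAAGT was found in windows of PDZK1 (the same letters, 5 bases and 37 bases before 2 start sites), USH1C (91 bases before the inner one), CUBN (45 bases before) and LRP2 (152 bases before). The HIF core was found in DAB2 (59 bases before, minus strand of the window). The lines below run from 200 bases before to 20 bases after the start site, 5' to 3', with CAAAGT or the HIF core, on either strand, in capitals; a match is a description of the letters and shows no binding.
PDZK1, chr1:145707381-145707600, minus strand: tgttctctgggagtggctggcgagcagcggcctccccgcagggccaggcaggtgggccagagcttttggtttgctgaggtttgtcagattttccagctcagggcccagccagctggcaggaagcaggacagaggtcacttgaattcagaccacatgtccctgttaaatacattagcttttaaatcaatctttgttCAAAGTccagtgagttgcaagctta
USH1C, outer start site, chr11:17544397-17544616, minus strand: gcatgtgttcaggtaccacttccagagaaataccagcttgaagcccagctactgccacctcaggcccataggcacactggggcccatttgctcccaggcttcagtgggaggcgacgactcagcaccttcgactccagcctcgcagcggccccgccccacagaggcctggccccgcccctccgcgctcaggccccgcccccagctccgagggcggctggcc
USH1C, inner start site, chr11:17533866-17534085, minus strand: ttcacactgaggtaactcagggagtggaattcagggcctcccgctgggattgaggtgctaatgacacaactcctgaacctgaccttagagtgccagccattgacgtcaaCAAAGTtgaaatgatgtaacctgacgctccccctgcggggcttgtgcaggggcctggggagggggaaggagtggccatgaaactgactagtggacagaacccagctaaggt
DAB2, chr5:39424961-39425180, minus strand: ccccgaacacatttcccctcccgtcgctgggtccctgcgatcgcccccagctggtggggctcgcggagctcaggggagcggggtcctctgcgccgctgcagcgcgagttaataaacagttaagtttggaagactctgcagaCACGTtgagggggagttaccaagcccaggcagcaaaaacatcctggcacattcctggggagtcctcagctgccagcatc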

How the data were processed

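Messenger RNA of 18 libraries of 786-O cells, in 6 groups of 3 taken from the sample titles, was quantified by the authors. Per the labels' protocols, column-purified, DNase-treated RNA was made into TruSeq RNA v2 libraries, which do not keep strand, and sequenced as read pairs. Per the file headers, each deposited file lists RefSeq transcripts with effective length, TPM and estimated count. Salmon 0.11.3, STAR 2.5.2b, DESeq2 1.14.1, cutadapt 1.12 and build hg19 appear, without roles, among the submitters' processing notes. Salmon divides reads that match several transcripts, so that counts of near-copies are estimates. The deposited estimated counts were whole within 1e-06 and were rounded and summed to 27086 genes; 1342 of 60422 listed transcripts were further copies, and the 437 unnamed transcripts (0.0854% to 0.12% of counts) were left out. Deposited TPM, normalized by the authors to the same total, was summed per gene and used for levels only. Deposited effective lengths served as offsets in an alternative fit.

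edgeR 4.0.16 (R 4.3.3) was used with filterByExpr, TMM factors and quasi-likelihood tests, 1 mean per group over the 9 libraries of an experiment (13715 and 13604 genes tested) or over all 18 (14207 genes). P-values were adjusted by Benjamini-Hochberg over all genes tested, with a threshold of 0.05; SE was the log2 fold change over the square root of F, and intervals are 1.96 SE. The edgeR and DESeq2 fits were tried on simulated counts modelled on the USP13 libraries, with changes placed only in genes of higher count. That trial does not cover members with few reads or the ZHX2 experiment. Alternatives were DESeq2 1.42.0 size factors and test, upper-quartile factors, no filter, the replicate number as a block, effective length offsets, the 2 groups of a contrast alone and each library left out. Chi-square per degree of freedom between replicates was 2.333 to 6.68 in 18 pairs, and no files were identical. Named genes were the 9 members, both targets, up to 4 genes of each list called under both hairpins of an experiment with the largest mean change, and the 3 genes most like each member by Pearson r (mean of at least 5 CPM, log2 pseudocount of 0.5); the overlap partners of ESPN and GGT1 and the tubule regulator HNF4A are named outside this rule. A few genes that the rule names are not reported here. Members, lists and motifs were chosen with earlier results of these data known.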

Additional observations from a re-analysis of the deposited data

Results flagged for a closer look

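Differences between hairpins or between experiments are collected here, each by the test of the difference itself unless given as a description; with 3 libraries a group, single libraries were not tested as outliers. For sh45 over sh43, all 8 tested members passed, as did 66.8% of all genes. Their log2 differences were CUBN 1.81, USH1C 1.64, PDZK1 1.18, ESPN 0.95, GGT1 0.33, DAB2 -0.29, ANPEP -0.73 and EZR -0.88. EZR is the 1 member of these whose changes over the shared shCtrl passed in opposite directions. For sh52 over sh50, where 10.2% of all genes passed, 3 members did: PDZK1 0.37, ESPN 0.36 and DAB2 0.26. For the USP13 response minus the ZHX2 response, where 43.4% of all genes passed, 4 members did: ESPN 3.43, PDZK1 2.21, DAB2 0.40 and GGT1 -0.19. Given as a description with no test, since these genes were picked with the USP13 libraries known, ANPEP was at -0.32 for sh52 over sh50, and USH1C at 0.63 and ANPEP at -0.44 for the USP13 response minus the ZHX2 response. CUBN, USH1C and ESPN exceeded the filter level in 0, 1 and 2 of the 3 sh43 libraries and entered the comparison of sh45 with sh43 through other groups.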

How the results depend on the processing

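Over 384 combinations of a member, a comparison and a setting other than leaving out a library, 370 kept direction and side of the threshold, 10 lost the call, 1 gained it and 3 changed sign without passing. Over 576 with 1 library left out, 530 kept both, 39 lost the call and 7 changed sign. These tallies include USH1C and ANPEP in comparisons that use USP13 libraries, which carry no test here. Of the 39 lost calls, 5 were ANPEP under sh50, 7 ANPEP for sh52 over sh50 and 12 USH1C between experiments. Most of the 10 lost calls fell in these same comparisons. The tallies are therefore a description. Signs changed for EZR in the USP13 response minus the ZHX2 response (-0.005 with DESeq2 size factors, -0.004 with the DESeq2 test, -0.005 without replicate 2 of the USP13 shCtrl, 0.0 without replicate 2 of the ZHX2 shCtrl; -0.005 to 0.049 with 1 library left out), GGT1 under sh45 (0.004 with upper-quartile factors, 0.001 without replicate 1 of shCtrl; -0.053 to 0.001), ANPEP under sh52 (0.066, 0.009 and 0.021 without replicate 1 or 3 of sh52 or replicate 1 of shCtrl; -0.137 to 0.066) and CUBN for sh52 over sh50 (-0.017 without replicate 1 of sh52; -0.017 to 0.468); the cause was not tested. With 1 library left out, genes called under sh52 numbered 991 to 1661 (1648 with all; 1023 and 991 without replicate 1 and replicate 2 of shCtrl), and under sh50 2041 to 3555 (2942 with all). Members called for sh52 over sh50 numbered 2 to 4, with 2 without replicate 2 of sh50; these counts include ANPEP, which is given with no test. Same-numbered libraries did not deviate together (r between -0.103 and 0.055 in the USP13 and between -0.064 and 0.038 in the ZHX2 experiment). Libraries with different numbers gave r between -0.098 and 0.083 and between -0.076 and 0.088. The titles do not say what the numbers mark. With the replicate block 6 members were called under sh50 in place of 7. Between experiments 5 were called in place of 6, and for sh52 over sh50 3 in place of 4. The genes that drop out were ANPEP, USH1C and ANPEP, which carry no test here. The fit of the 2 groups of a contrast alone could not be made for the difference between experiments. No scaling moved the median of all genes by more than 0.1. Depth limits CUBN, LRP2 and, under ZHX2 hairpins, USH1C and ESPN.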
